A study of Drosophila melanogaster with 4 samples.

Results

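The genes described here encode the E-cadherin adherens junction and the protein modules that set up apical and basolateral polarity in Drosophila epithelia. They were taken from a list of 10 genes, namely shg, arm, alpha-Cat, p120ctn, baz, crb, sdt, dlg1, scrib and par-6. A gene was kept if at least 1 non-control spot on the array was annotated to it alone and if its spots gave a value on at least 3 of 4 arrays. By this rule 8 of the 10 genes were measured, among 8240 genes in all.

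E-cadherin, the product of shg, joins neighbouring cells through its extracellular domain and is tied to the actin cortex by beta-catenin (arm) and alpha-catenin. The Par proteins Bazooka and Par-6 and the Crumbs complex mark the apical side of epithelial cells, whereas Discs large and Scribble mark the basolateral side. In the fly embryo they are best known from the steps in which the syncytium is divided into cells and the first epithelium forms. Most of the mRNAs are known to be loaded into the egg by the mother, and shg, arm, alpha-Cat, p120ctn, baz, dlg1, scrib and par-6 were grouped as maternal members on that ground. The transcripts of crb and sdt are known mainly from zygotic expression, and both genes were grouped as zygotic members. The grouping is background knowledge and no value of these arrays measures it.

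The arrays compared total RNA of laser wounded syncytial embryos with that of unwounded embryos handled in the same way, at 0 min post-wounding. Embryos of both conditions were 0 to 1 h old, carried the actin reporter sGMCA and were pooled, and 30 ug of RNA per condition went onto each array. There were 4 arrays, named experiments 3, 4, 7 and 8, each with 1 wounded and 1 unwounded sample. According to the labels, experiment 4 was the dye swap, with wounded RNA in Cy5, and the other arrays had wounded RNA in Cy3. Per the methods, wounded and unwounded samples of the time point were replicated independently on these arrays. The p-values cover the spread between the 4 arrays.

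Each value is the log2 ratio of both dyes at a spot of a cDNA clone, and a value of 1 would be a doubling. The sources used here do not say if it was formed between dyes (Cy5 over Cy3) or between conditions (wounded over unwounded). Signs are therefore given only for single arrays, as deposited, and means over arrays are given in size. These means were formed with the sign of experiment 4 reversed (experiment 4 turned), which fits a ratio of Cy5 over Cy3, and again with experiment 4 not turned. The standard deviation over genes lay between 0.249 in experiment 8 and 0.337 in experiment 3, and the array medians lay between -0.03 and 0.01. Over genes, which are not independent replicates, experiments 3 and 7 had a Pearson correlation of 0.30. Experiments 7 and 8, with the same dyes, had one of -0.33 over genes and of -0.27 over probes. A ratio holds no level, so neither the presence of a transcript nor the stage of the embryos could be checked. The RNA came from whole embryos, so where in the embryo a transcript differed cannot be told.

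None of the 8 measured members passed limma at a false discovery rate of 5% and a size of 1.5-fold (0.58 on the log2 scale), with experiment 4 turned or not. The mean ratios of shg and dlg1 were largest in size with experiment 4 turned, 0.23 each, and that of sdt with experiment 4 not turned, 0.22. Between experiments 7 and 8, arrays with the same dyes, 6 of 7 members with both values were lower in experiment 7, beside 46.1% of all genes. Their differences lay between -0.62 for scrib and -0.18 for alpha-Cat on the log2 scale, and par-6 was the exception. That of sdt, -0.32, includes a clone with no value in experiment 8, RH69430. Without it sdt had -0.43 in experiment 7 and -0.31 in experiment 8.

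**Figure D1:**
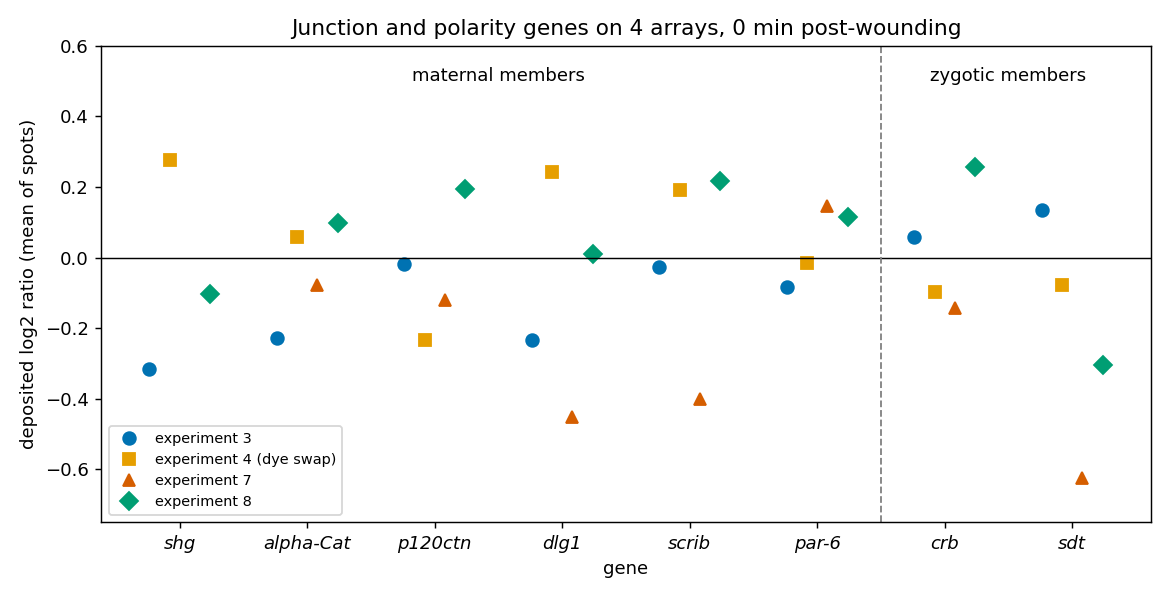
Deposited log2 ratio (vertical axis, mean of the spots of a gene) of the 8 measured members on each array, with 1 point per array and the genes along the horizontal axis. The 6 maternal members stand left of the dashed line and the 2 zygotic members right of it. The genes dlg1, scrib, crb and sdt have their lowest points in experiment 7, and shg has no value there.

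In the cadherin complex itself, shg had deposited log2 ratios of -0.32, 0.28 and -0.10 in experiments 3, 4 and 8 at its single clone, LD22706, and no value in experiment 7. The array with swapped dyes was thus the only one above 0. Turned against the others, it left 3 ratios of 1 sign, whose mean was 0.23 in size (SD 0.113 over 3 arrays, limma adjusted p = 0.998). Not turned, the mean was 0.05 in size (SD 0.301 over 3 arrays, limma adjusted p = 0.997). The size for shg thus rests on how experiment 4 is read.

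For alpha-Cat, whose protein links the complex to actin filaments, the single clone LD30423 had ratios of -0.23, 0.06, -0.08 and 0.10 in experiments 3, 4, 7 and 8. The values lay on both sides of 0 and their mean was 0.07 in size (SD 0.133 over 4 arrays, limma adjusted p = 0.998), or 0.04 with experiment 4 not turned. p120ctn, a catenin that binds the cadherin tail near the membrane, had ratios of -0.02, -0.23, -0.12 and 0.19. Here 3 arrays were below 0 and experiment 8 was above it, and the mean was 0.07 in size (SD 0.169 over 4 arrays, limma adjusted p = 0.998). With experiment 4 not turned it was 0.04 in size and of the opposite sign. Its 2 clones, LD03740 and LD33274, differed by 0.01 in experiment 7 and by at most 0.11 in the other experiments, less on each array than the median over 1081 genes with 2 spots, which was 0.116 to 0.132. Another clone, LP11508, is annotated to p120ctn and to CG4553 and was left out.

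The genes arm and baz were without values. No spot was annotated to arm alone. The single clone of baz, LD15989, had no value on any array, which was so for 35 of 9917 spots of 1 gene. Beta-catenin and Bazooka, the fly Par-3, are therefore not described further.

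The basolateral genes dlg1 and scrib had their lowest ratios in experiment 7, as did the apical genes crb and sdt. dlg1 encodes a scaffold of the membrane-associated guanylate kinase family, and had ratios of -0.23, 0.24, -0.45 and 0.01 in experiments 3, 4, 7 and 8. Its ratio in experiment 7 stood at percentile 6.14 of all genes on that array. With experiment 4 turned, the mean was 0.23 in size (SD 0.189, SE 0.091 over 4 arrays, limma adjusted p = 0.998). With experiment 4 not turned it was 0.11 (SD 0.30, limma adjusted p = 0.997). scrib encodes a scaffold with leucine-rich repeats and PDZ domains, and had ratios of -0.03, 0.19, -0.40 and 0.22. Experiment 7 stood at percentile 7.53 and experiment 8 at percentile 89.2, so the 2 arrays with the same dyes lay near opposite ends. The mean of scrib was 0.10 in size (SD 0.261 over 4 arrays, limma adjusted p = 0.998), and 0.0041 with experiment 4 not turned.

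The spots of dlg1 did not move together on every array. In experiment 7, clones GH01107, GH15958 and LD10659 had ratios of -0.79, -0.49 and -0.60, and LD33841 had one of 0.07. This range of 0.863 was wider than that of 89.2% of the 37 genes with 4 spots, whose median was 0.420. Clones named GH come from an adult head library and those named LD from an embryonic one, so the odd clone and LD10659 share their source. In experiment 4 the 4 clones had ratios of 0.15, 0.23, 0.48 and 0.11, all above 0. In experiment 8 they lay between -0.07 and 0.13, around 0. Without LD33841, chosen after the values were seen, the mean of dlg1 was 0.28 in size (limma adjusted p = 0.998). The 2 clones of scrib both had their lowest ratio in experiment 7, with -0.52 for LD43989 and -0.28 for SD05339 there, and had 0.08 and 0.35 in experiment 8.

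par-6, which encodes the adaptor that joins atypical protein kinase C and Cdc42 to the apical complex, varied least. Its single clone, LD29223, had ratios of -0.08, -0.01, 0.15 and 0.12 in experiments 3, 4, 7 and 8. They spanned 0.229 over the arrays, beside a median span of 0.397 over all genes. The mean was 0.05 in size (SD 0.104 over 4 arrays, limma adjusted p = 0.998), and 0.04 with experiment 4 not turned. par-6 was also the only member with both values in which experiment 7 was not below experiment 8.

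Of the zygotic members, crb encodes a transmembrane protein of the apical membrane. Clone LD13435 had ratios of 0.06, -0.10, -0.14 and 0.26 in experiments 3, 4, 7 and 8. Arrays of both signs were seen among those with the same dyes, and the mean was 0.07 in size (SD 0.164 over 4 arrays, limma adjusted p = 0.998), or 0.02 with experiment 4 not turned.

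sdt encodes the scaffold that binds the Crumbs tail, and had ratios of 0.14, -0.08, -0.62 and -0.31. With all spots averaged it had the widest span of the members, 0.759. It then stood at percentile 2.78 of all genes in experiment 7. Both values include clone RH69430, described below. Without that clone the ratios of sdt lay between -0.43 and -0.08, a narrower span than that of dlg1, 0.694. With all spots, the mean of sdt was 0.18 in size with experiment 4 turned (SD 0.355 over 4 arrays, limma adjusted p = 0.998). With experiment 4 not turned it was 0.22 (SD 0.325, limma adjusted p = 0.997).

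The value of sdt in experiment 3 was made by 1 spot. Clone RH69430 read 2.02 in experiment 3, read -1.40 in experiment 7 and had no value in the other experiments. Without it the ratio of sdt was -0.34 in experiment 3 and -0.43 in experiment 7, and all 4 arrays were then below 0. In this setting, added after the values were seen, the mean was 0.25 in size (limma adjusted p = 0.998), and 0.29 with experiment 4 not turned (limma adjusted p = 0.997).

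Clone RE21473 had ratios of -0.73, -0.32, -0.83 and -1.26 in experiments 3, 4, 7 and 8, below 0 on every array whatever its dyes. RE05272 and RE70031 were also below 0 on all 4 arrays but nearer to it, at -0.16, -0.0049, -0.05 and -0.26 for RE05272 and at -0.48, -0.0091, -0.32 and -0.17 for RE70031. A second printing of clone RE70031, RE70031_ReAmp, had ratios of 0.02, 0.02, -0.51 and 0.47. In experiment 8 both printings of that clone differed by 0.640, beside a median of 0.292 over 369 such pairs, and in experiment 4 by 0.0315, beside a median of 0.157. Without RE21473, also set aside after the values were seen, the mean of sdt was 0.05 in size with experiment 4 turned. This mean still includes RH69430, with which the ratio in experiment 3 was 0.35. Without both clones sdt had ratios of -0.20, 0.0028, -0.29 and 0.01 in experiments 3, 4, 7 and 8. Clones RH54761 and GH10588 are each annotated to sdt and to another gene, Arr2 and HDAC4, and were left out.

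**Figure D2:**
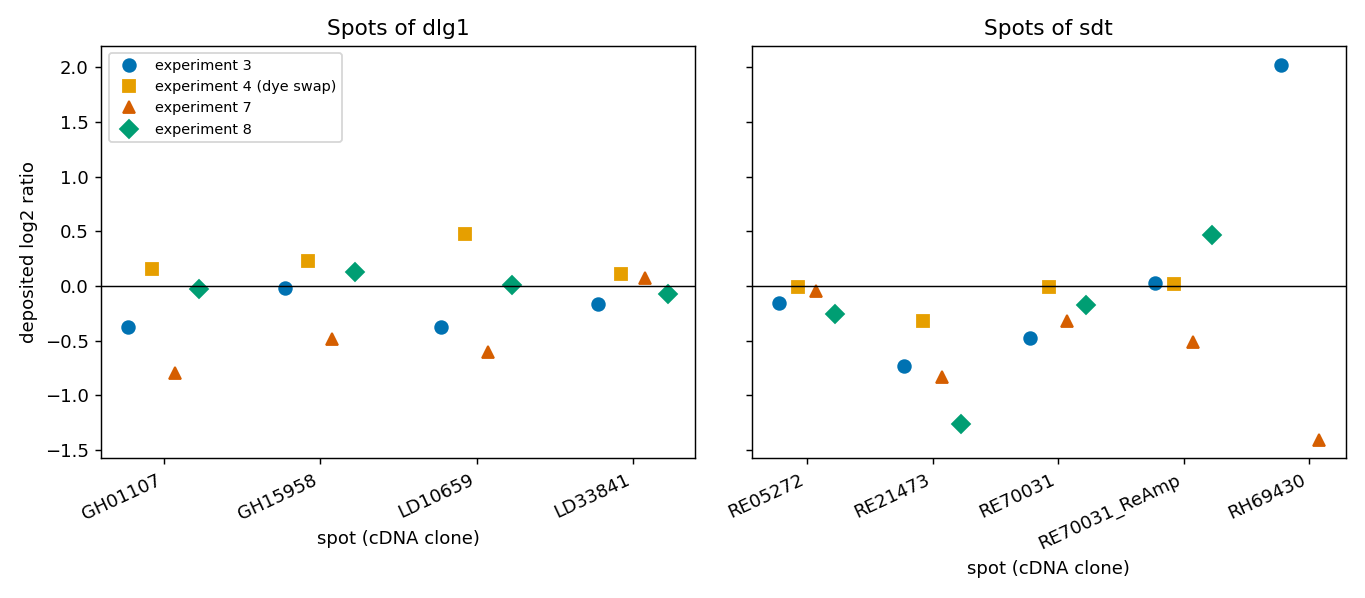
Deposited log2 ratio (vertical axis) of each spot of dlg1 (left) and sdt (right) on each array, 1 point per array and spot. Of the dlg1 clones, only LD33841 is above 0 in experiment 7, at 0.07; of the sdt spots, RH69430 has values on 2 arrays only, 2.02 and -1.40, and RE21473 is below 0 on all 4.

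Across the members, the mean ratios lay between 0.05 and 0.23 in size with experiment 4 turned and between 0.0041 and 0.22 with experiment 4 not turned. Over all 8240 genes, 0% passed the threshold of the study with experiment 4 turned and 0% with it not turned, and likewise at the adjusted p alone. An unadjusted limma p under 0.05 was found for 2 of 8 members, shg and dlg1, beside 4.93% of all genes with experiment 4 turned, and for 0 of 8 beside 2.51% with it not turned. Of the 406 genes with such a p and experiment 4 turned, 358 had a mean of the same sign as shg and dlg1. With experiment 4 not turned, 123 of 207 genes had that sign. Both genes missed the limit when each array was centred on its median and when a dye term was added. sdt had such a p without clone RH69430, in both readings.

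With the spots of a gene averaged and all arrays used, the arrays bound how large a change of these genes could be, for a probe that reads its transcript. The 95% confidence interval of the mean from limma, unadjusted, lay within 1.5-fold in both directions for 8 of 8 members with experiment 4 turned, with it not turned and with a dye term. This was common, since it held for 92.2%, 91.9% and 85.9% of all genes. The widest reach was that of sdt, whose interval went to 0.52 in size with experiment 4 turned and to 0.54 with it not turned. The narrowest was that of par-6, which went to 0.22 in both cases. Clone RE21473 of sdt, fitted alone with experiment 4 turned, had a mean of 0.63 in size, itself past 1.5-fold. An array turned the wrong way would cancel opposite values, so each interval bounds a change only under its reading.

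**Figure D3:**
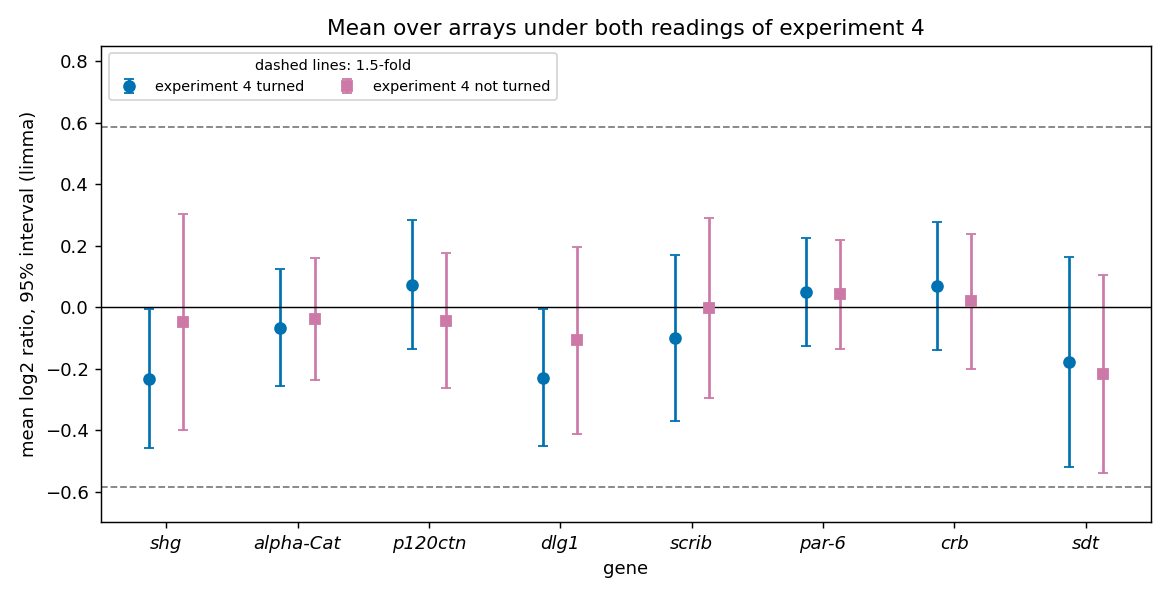
Mean log2 ratio over arrays from limma (vertical axis) of each measured member with its 95% confidence interval, with experiment 4 turned (circles) and not turned (squares), in the orientation of experiments 3, 7 and 8. All intervals lie between the dashed lines at 1.5-fold, and those of shg and dlg1 leave out 0 only with experiment 4 turned.

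With all spots averaged, no member kept 1 sign over all 4 arrays. Among the 7 members with 4 values, 0 had the same deposited sign on all of them, beside 10% of all genes. With experiment 4 turned, 0 had the same sign, beside 12%. The count of deposited signs rests on clone RH69430 of sdt. Without it all 4 deposited ratios of sdt were below 0, from -0.43 to -0.08. Of these 7 members, 6 were lower in experiment 7 than in experiment 8, beside 46.1% of all genes. The same 6 were below 0 in experiment 7, beside 47.3% of all genes. In experiment 8, 6 of 8 members were above 0, beside 46.1% of all genes, with shg and sdt below it. The median difference of experiment 7 minus experiment 8 was -0.32 over the members and 0.03 over all genes. The value over the members is that of sdt, which includes clone RH69430 in experiment 7 only.

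The maternal members and the zygotic members were not alike on each array. The 6 measured maternal members had median deposited ratios of -0.15, 0.13, -0.12 and 0.11 in experiments 3, 4, 7 and 8, with 5 members in experiment 7. In experiment 3 all 6 were below 0, on an array where 3533 of 8240 genes were above 0. With experiment 4 turned, experiments 3, 4 and 7 thus lay close to each other and experiment 8 on the other side of 0. The 2 zygotic members had medians of 0.10, -0.09, -0.38 and -0.02. The values in experiments 3 and 7 depend on clone RH69430 of sdt, without which sdt had -0.34 and -0.43 there. The median of the signed mean ratios was 0.08 in size for the maternal members and 0.06 for the zygotic members. With experiment 4 not turned these were 0.04 and 0.10. Over all genes, whose means lie on both sides of 0, it was 0.0012 and 0.0099, which is no background for single genes. The median of the sizes themselves was 0.087 for the maternal members, and 0.043 with experiment 4 not turned. For the zygotic members it was 0.12 in both readings, and over all genes 0.065 and 0.064. Leaving out 1 array with experiment 4 turned, the maternal median of the signed means ran from 0.03 to 0.16 in size with 1 sign. The zygotic one ran from -0.11 to 0.05 in the orientation of experiments 3, 7 and 8. With 2 zygotic genes that differed from each other in experiment 8 (0.26 for crb and -0.31 for sdt), no difference between both groups can be read from these medians.

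Genes known to be transcribed early in the zygote moved with the difference between experiments 7 and 8. The 19 measured markers of that kind, such as slam and nullo, had medians of -0.16, -0.02, -0.48 and 0.37 in experiments 3, 4, 7 and 8. Of them 16 of 19 were lower in experiment 7 than in experiment 8, beside 46.1% of all genes. In experiment 7 the marker ratios ran from -0.92 to 0.01, with 1 of 19 above 0, beside 4345 of 8237 genes. In experiment 8 they ran from -0.48 to 0.76, with 15 of 19 above 0, beside 46.1% of all genes. The 25 maternal markers, such as bcd and osk, had medians of -0.03 and -0.02 in these experiments, and 12 of 25 were lower in experiment 7. The 14 markers of differentiated tissues had medians of 0.10, 0.39, -0.03 and 0.04 in experiments 3, 4, 7 and 8. The part of any of these in the ratios of the junction and polarity genes was not tested.

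**Figure D4:**
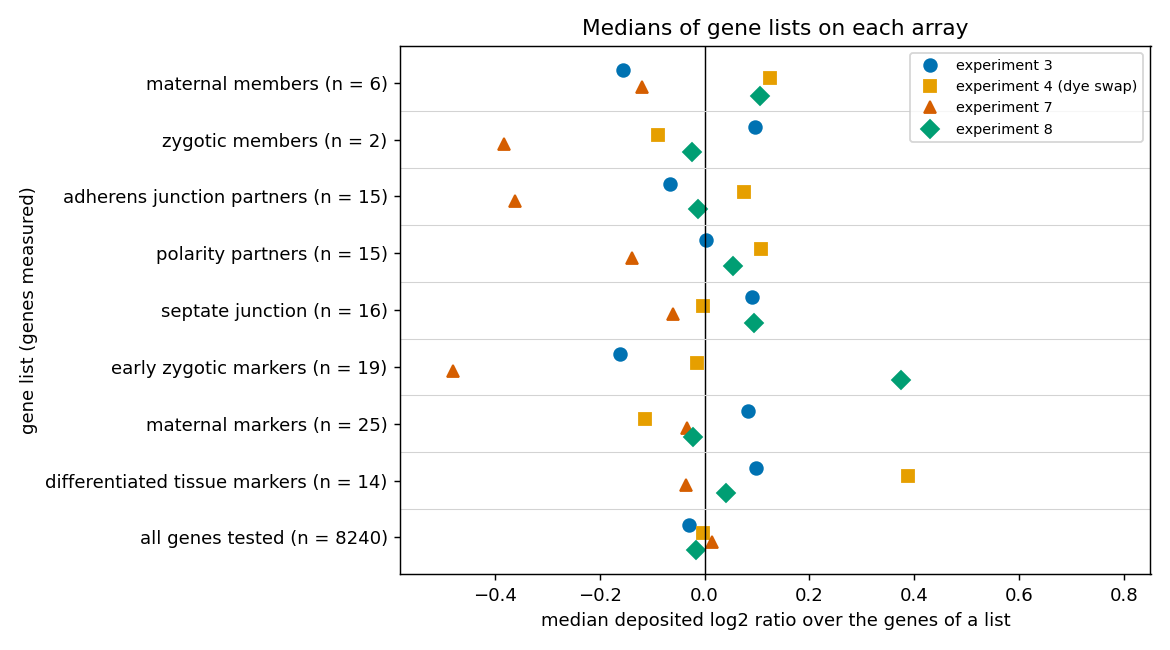
Median deposited log2 ratio (horizontal axis) on each array of the maternal and zygotic members, of 3 lists of partner genes, of 3 lists of marker genes and of all genes tested, with 1 point per array. The early zygotic markers have the widest gap, from -0.48 in experiment 7 to 0.37 in experiment 8, and the medians over all genes lie near 0 on every array.

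Partners of the adherens junction stood low in experiment 7 as well. The 15 measured genes of this list had medians of -0.07, 0.07, -0.36 and -0.01 in experiments 3, 4, 7 and 8. In this list 12 of 15 were lower in experiment 7 than in experiment 8, beside 46.1% of all genes. None of the 15 passed the threshold. With experiment 4 turned, 1 of 15 had an unadjusted limma p under 0.05, beside 4.93% of all genes, and with it not turned 0 of 15 did, beside 2.51%. This was mbt, which encodes a p21-activated kinase of junctions. It had ratios of -0.22, 0.07, -0.48 and -0.25 and a mean of 0.26 in size (limma adjusted p = 0.958), or 0.22 with experiment 4 not turned. The list had a median of the mean ratios of 0.09 in size in both readings. cno, the fly afadin that links junctions to actin, had ratios of -0.20, -0.02, -0.66 and -0.02 and a mean of 0.21 in size. At the other end of the list with experiment 4 turned were Zyx and jub, which encode LIM domain proteins of junctions and focal adhesions. Zyx had ratios of -0.11, 0.01, 0.17 and 0.29 with a mean of 0.08 in size, or 0.09 with experiment 4 not turned. jub had ratios of -0.07, -0.03, 0.53 and -0.24 with a mean of 0.06 in size, or 0.05 with experiment 4 not turned, where Vinc, which encodes vinculin, was highest at 0.12.

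Of 15 measured partners of apical and basolateral polarity, none passed the threshold. With experiment 4 turned, 1 had an unadjusted limma p under 0.05, beside 4.93% of all genes. With experiment 4 not turned none did, beside 2.51%. The gene with such a p was beta-Spec, which encodes the beta-spectrin of the basolateral membrane skeleton. It had ratios of -0.41, 0.41, -0.50 and -0.07 and a mean of 0.35 in size (limma adjusted p = 0.915), or 0.14 with experiment 4 not turned. Its ratio in experiment 4 was as far above 0 as that in experiment 3 was below. ex, a regulator of the Hippo pathway that binds the Crumbs tail, had ratios of -0.27, -0.14, -0.83 and 0.07, and gukh, whose protein binds both Discs large and Scribble, had ratios of 0.41, 0.11, 0.04 and 0.05, above 0 on every array. The second highest mean of the list with experiment 4 turned, after that of gukh, was that of 14-3-3zeta, a binding protein of phosphorylated Bazooka, with 0.08 in size. With experiment 4 not turned it was that of Moe, which encodes moesin, with 0.14. The list had medians of 0.0032, 0.11, -0.14 and 0.05 in experiments 3, 4, 7 and 8. In it 11 of 15 genes were lower in experiment 7 than in experiment 8, beside 46.1% of all genes.

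The 16 measured genes of septate junctions, which form later and hold dlg1 and scrib at their membrane domain, had medians of 0.09, -0.0022, -0.06 and 0.09. Here 11 of 16 were lower in experiment 7 than in experiment 8, beside 46.1% of all genes. None of the 16 had an unadjusted limma p under 0.05 in either reading. Over all genes 4.93% did with experiment 4 turned and 2.51% with it not turned. The highest means with experiment 4 turned, in the orientation of experiments 3, 7 and 8, were 0.18 for crim and 0.14 for M6, and the lowest were -0.10 for bou and -0.03 for wun. The order did not hold with experiment 4 not turned, where vari, which encodes a membrane-associated guanylate kinase, and nrv2, which encodes a subunit of the sodium pump, were highest with 0.18 and 0.17, crim and M6 had 0.14 and 0.15, and wun had 0.06. crim and bou encode Ly6 proteins needed to build these junctions, and M6 encodes a membrane protein of the sites where 3 cells meet.

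The genes with ratios most like those of sdt and dlg1 were found by Euclidean distance over the 4 deposited ratios. With all spots averaged, these were the members with the widest span. For dlg1 they were Ptp69D, tinc and CG9487, at distances of 0.0716, 0.108 and 0.109. Ptp69D, which encodes a receptor tyrosine phosphatase, had ratios of -0.19, 0.24, -0.49 and -0.03. The genes nearest to sdt were SF1, Rpt3 and Ugt35E2, at distances of 0.171, 0.174 and 0.191. The span and the ratios of sdt used here include clone RH69430. Without that clone sdt had ratios of -0.34, -0.08, -0.43 and -0.31 in experiments 3, 4, 7 and 8. These span less than those of dlg1 (0.694) and scrib (0.618), so the choice of sdt rests on that clone too. Genes nearest to these ratios were not sought, so the genes named for sdt rest on that clone.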

How the data were processed

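The authors scanned spotted FHCRC Fly 12k cDNA arrays with a GenePix scanner and deposited 1 log2 ratio of both dyes per spot and array, made comparable by loess within each array with limma (version: not given in the sources used here). Before this step the methods filter dim and flagged spots. Whether missing values stem from that filter is not known, and no intensities come with the ratios. The number of arrays limits the precision.

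Of 12144 spots, 160 controls were left out. Of the other 11984 spots, 9917 had 1 gene in the platform annotation, 625 had several and 1442 had none listed. Symbols of 9746 spots were updated through the RefSeq table of Release 6 by gene number, and 171 were kept. Spots of a gene were averaged per array, and limma 3.58.1 (R 4.3.3) was run on the 8240 genes with 3 or more values (lmFit, then eBayes, two-sided, Benjamini-Hochberg over all genes, 1 coefficient with experiment 4 given the opposite sign). The threshold was that of the methods, a false discovery rate of 5% and a 1.5-fold change. The fit was tested on simulated data.

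The members, lists and tests were chosen with earlier results of these data known. Named were the 10 members, the 2 highest and 2 lowest means of each partner list with any unadjusted p under 0.05, and the 3 genes nearest to the 2 members of widest span. Lists were described by counts and medians, with no set test. Alternatives changed the sign of experiment 4, the dye term, the arrays required, the summary over spots, centring, scale, variance moderation, the unit fitted and the arrays included. No sequence of the clones or genes is shown.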

Additional observations from a re-analysis of the deposited data

Results flagged for a closer look

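For 16 sets of 4 values, those of 7 members and 9 medians over members or lists, the arrays were searched for 1 far from the others, and 1 set stood out, where chance gives about 1 in 20. With experiment 4 turned, the median of the maternal members in experiment 8, 0.11 as deposited, lay apart from experiments 3, 4 and 7, with a gap of 0.863 of the whole range. It covers 6 genes in experiment 8 and 5 in experiment 7, where shg has no value. The gap rests on the turning of experiment 4.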

How the results depend on the processing

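No gene and no member passed the threshold under any of the 20 other settings run, and the lowest adjusted p of a member was 0.716, without experiment 8. The count of members at an unadjusted p under 0.05, 2 of 8, was 0 with experiment 4 not turned, 0 with a dye term, 0 with centred arrays and 1 of 7 with values required on all 4 arrays. Fitted as single spots the count was 4 of 16, beside 5.87% of all spots fitted. These were 2 clones of dlg1 and 2 of sdt, and clones of the same gene are not independent members. Without spots on fewer than 3 arrays the count was 3, with sdt added, beside 4.92% of all genes. With experiment 4 not turned as well it was 1, sdt alone, beside 2.52%. Without each array the count ran from 0 to 2, beside 3.31% to 6.71% of all genes. It was 0 without experiment 3 and without experiment 4. With experiment 4 not turned it was 1, sdt, without experiment 3, beside 0.995% of all genes. Of 151 means of single members under these settings, 140 kept their sign. Many of these means could not change, so the count is no measure of stability. Variance moderation leaves each mean as it is, and leaving out a spot changes only its own gene. Without experiment 4 both readings are the same fit. In the orientation of experiments 3, 7 and 8, the mean of p120ctn was 0.0727, and -0.0445 with experiment 4 not turned, also without spots on fewer than 3 arrays. Leaving out each array in both readings, the means ran from -0.297 to 0.087 for shg, from -0.121 to 0.0253 for alpha-Cat, from -0.309 to 0.0063 for dlg1, from -0.207 to 0.128 for scrib, from -0.0605 to 0.138 for crb and from -0.124 to 0.137 for p120ctn. Those of sdt ran from -0.335 to -0.0307 and those of par-6 from 0.00613 to 0.0919. All signs opposite to those first given fell with experiment 4 not turned. They were found without experiment 3 for shg, alpha-Cat, p120ctn (-0.0532) and scrib (0.0033), without experiment 7 for p120ctn (-0.0196), dlg1 and scrib, and without experiment 8 for p120ctn and crb. With experiment 4 turned, no member changed sign when 1 array was left out. The cause of these shifts was not tested. No paired analysis was possible beyond the ratios themselves, because each of them already pairs the wounded with the unwounded sample of 1 array.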
